A study of Rattus norvegicus with 12 samples.

Results

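The TGF-beta pathway was described through 10 genes: the ligands Tgfb1, Tgfb2 and Tgfb3, the receptors Tgfbr1, Tgfbr2 and Tgfbr3, the signal carriers Smad2 and Smad3, the inhibitor Smad7, and Ltbp1, which ties the latent ligand to the matrix. They were chosen by symbol, and each probe set whose annotation gave 1 of these symbols or an older alias was taken. This gave 15 probe sets of 9 genes, out of 31042 probe sets and 14217 genes with a single symbol on the array. Tgfbr2 was not analysed here, since no probe set was matched to it.

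WB311 is a tumorigenic rat hepatic line that arose spontaneously from WB-F344, a non-tumorigenic diploid line from the liver epithelium of an adult male Fischer rat. The 4 groups were WB311 cells with 50 nM rapamycin, WB311 cells with DMSO vehicle, WB-F344 cells with 50 nM rapamycin and WB-F344 cells with DMSO vehicle, each for 24 hr and each on 3 plates, with 1 array per plate. Labels give doubling times of 15.5 hr for WB311 and 42 hr for WB-F344, and call the first line resistant and the second sensitive to rapamycin, an inhibitor of the kinase mTOR. Both lines grew in the same medium with fetal bovine serum, and each line is a single cell line, so a difference between them is one between these lines.

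TGF-beta ligands are secreted as a latent complex, in which a propeptide of the ligand covers it and a latent TGF-beta binding protein ties it to the matrix. Freed ligand binds the type II receptor, which activates the type I receptor Tgfbr1. This kinase phosphorylates Smad2 and Smad3, which enter the nucleus with Smad4 and turn on genes for matrix proteins, cell cycle inhibitors and Smad7, which in turn shuts the receptor down. In liver the pathway is known for holding back the growth of epithelial cells and for driving fibrosis.

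Values are intensities on a linear scale, the brightness of a probe set after normalization by the authors, with a median of 59.5 to 62.9 per array. Tests were made on log2 intensity with limma over all probe sets, where either group compared averaged at least 100, and a probe set was called at a Benjamini-Hochberg adjusted p under 0.05 and a fold change of at least 1.2. Levels of different probe sets are not compared, since probe sets differ in brightness. Of the cell type markers, 1 of 6 for hepatocytes (Ttr) reached 100 in either line, so albumin and the other hepatocyte genes on the array were below it, while the epithelial keratin Krt7 reached 100 in both. Of 5 leukocyte markers only Cd14 reached 100. Among 6 mesenchymal markers, 3 did in WB311 and 5 in WB-F344, and their summed intensity was 1156 to 1280 over the WB311 arrays, against 22717 to 36260 over the WB-F344 arrays. Of 5 biliary or progenitor markers, summed at 238 to 331 in WB311 and 4909 to 6663 in WB-F344, Krt19 and Krt7 reached 100 in WB311, and Krt7 and Cd24 in WB-F344. Of 4 endothelial markers Tek alone reached 100, in WB311 (sums of 1003 to 1260, against 85 to 106 in WB-F344). Summed leukocyte markers were 581 to 730 in WB311.

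Plate 2 of each WB-F344 group was unlike the rest of its line in RNA quality. The log2 difference between the 3′ and 5′ probe sets of the control transcript for beta-actin was 0.62 with rapamycin and 1.04 with vehicle on these plates, against 0.21 to 0.25 on the other WB-F344 plates and 0.38 to 0.49 on the WB311 plates. For Gapdh it was 0.17 and 0.34, against -0.12 to -0.04 on the other WB-F344 plates and -0.11 to -0.04 in WB311. Where leaving out both plates changed the call of a member or of a gene in the lists below, this is said beside it. The counts of members called between the lines, 8 with vehicle and 9 with rapamycin, were the same without them.

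With vehicle, the ligands, Ltbp1 and Smad7 were lower in WB311 than in WB-F344, and the type I receptor was higher. Of the 11 member probe sets tested, 7 were called lower, of Tgfb1, Tgfb2, Tgfb3, Smad7 and Ltbp1, against 28.1% of all probe sets tested, and 1 was called higher, of Tgfbr1, against 27.9%. The median log2 difference over the 11 was -2.06, against 0.02 over all probe sets tested. The 11 are probe sets of 9 genes. Tgfb2 and Smad7 each entered with a first and a second probe set, all called lower. They thus weigh more in this count and median than a gene with a single one. With rapamycin in both lines, 7 of 10 were called lower (background 26.0%) and 2 higher, Tgfbr1 and Smad2 (background 33.3%), with a median of -1.58 against 0.06. These 10 are of 8 genes, with the same probe sets of Tgfb2 and Smad7. The second of Smad7 averaged at least 100 only in WB-F344 (209 with vehicle, against 37.1 in WB311). It was thus tested, under either treatment, through the line where it was higher. In these bulk samples, fewer cells that express a gene and less RNA per cell cannot be told apart.

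**Figure D1:**
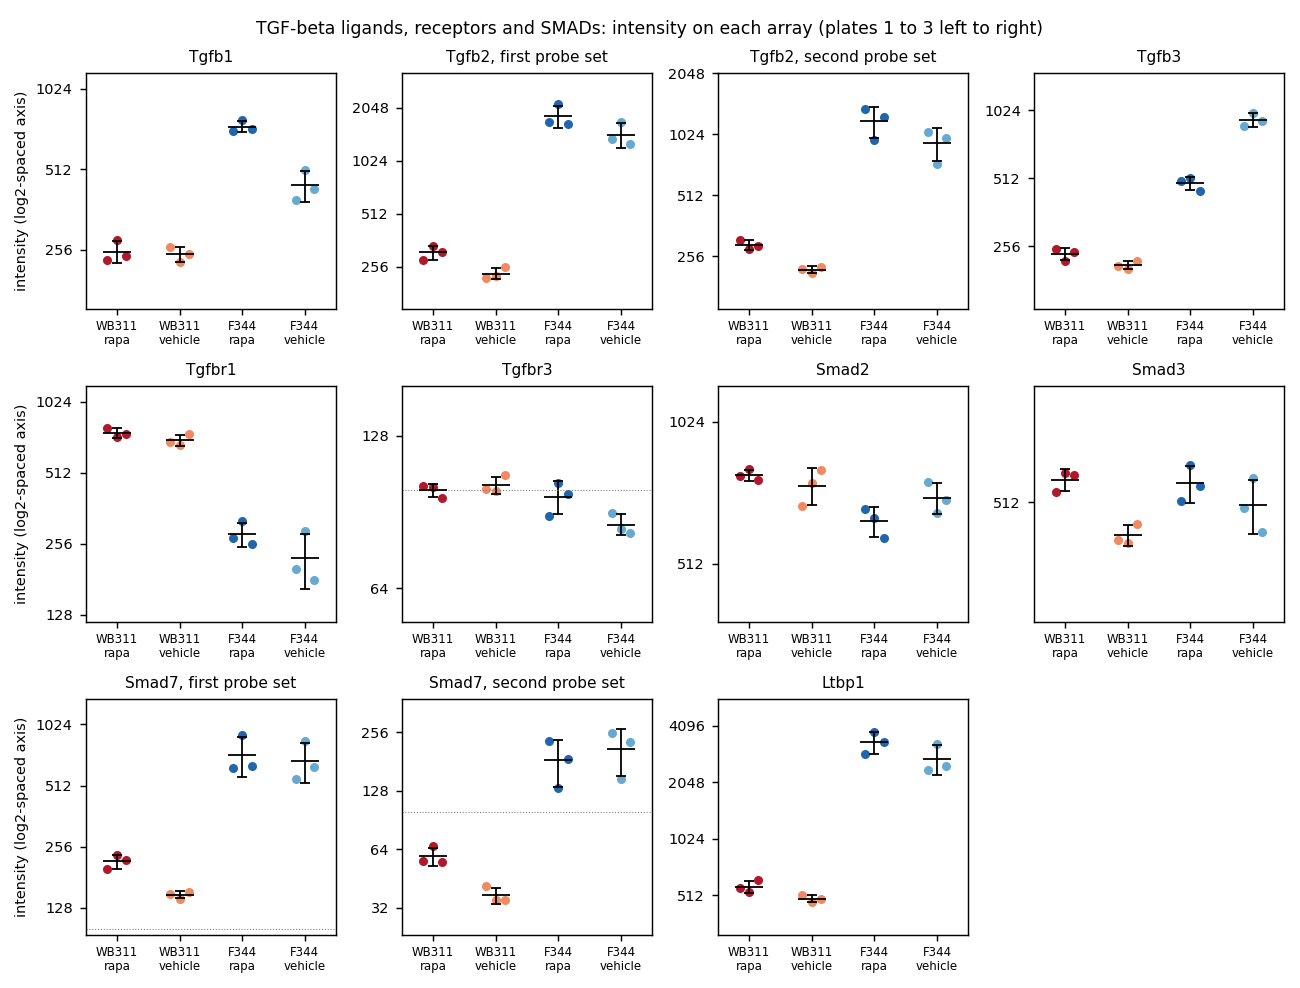
Intensity of the 11 member probe sets tested on each of the 12 arrays (y axis, log2-spaced, own range per panel), by group from left to right: WB311 with rapamycin, WB311 with vehicle, WB-F344 with rapamycin, WB-F344 with vehicle. Points are plates, the horizontal bar is the mean and the whiskers are the SD (n = 3), and the dotted line marks 100. The WB311 points lie below the WB-F344 points for the ligands, Smad7 and Ltbp1, and above them for Tgfbr1.

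Tgfb2, a ligand needed for the development of many organs, is encoded on chromosome 13 (100691540 to 100793227, build GRCr8). Its first probe set gave 279, 335 and 311 on the WB311 rapamycin plates and 221, 227 and 253 on the WB311 vehicle plates, against 1704, 2137 and 1645 on the WB-F344 rapamycin plates and 1351, 1693 and 1267 on the WB-F344 vehicle plates. Every WB311 array was below every WB-F344 array, and with vehicle the difference was -2.61 on the log2 scale (SE 0.13, adjusted p = 3.17e-09). The second gave 309, 278 and 287 with rapamycin and 220.4, 211 and 228 with vehicle in WB311, against 1369, 963 and 1244 with rapamycin and 1056, 732 and 987 with vehicle in WB-F344. Its line difference with vehicle was -2.06 (SE 0.14, adjusted p = 8.89e-08), and the groups again did not overlap between the lines. With rapamycin the differences were -2.56 (adjusted p = 3.1e-09) and -2.02 (adjusted p = 8.75e-08).

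Tgfb1, the ligand most studied in liver fibrosis, lies on chromosome 1 (90324312 to 90340627). It gave 234, 279 and 242 with rapamycin and 262, 230.5 and 247 with vehicle in WB311, against 712, 780.3 and 725 with rapamycin and 394, 509.9 and 432 with vehicle in WB-F344. The 6 WB311 values lay in 1 narrow band, and the WB-F344 rapamycin plates stood above both. The difference between the lines was -0.85 with vehicle (SE 0.10, adjusted p = 1.5e-05) and -1.56 with rapamycin (adjusted p = 4.45e-08).

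Tgfb3 lies on chromosome 6 (111435170 to 111457646). Its intensity was 248, 219.5 and 242 with rapamycin and 209.7, 202 and 219.8 with vehicle in WB311, against 499, 513 and 449 with rapamycin and 871, 999 and 924 with vehicle in WB-F344. The WB-F344 vehicle plates were the highest, and the WB311 plates the lowest. The line difference was -2.14 with vehicle (SE 0.08, adjusted p = 2.92e-10) and -1.04 with rapamycin (adjusted p = 2.32e-07).

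The sequences upstream of Tgfb1 and Tgfb3 are shown because these ligands moved in opposite directions with rapamycin in WB-F344. Each is the 250 bases before the RefSeq start used for the gene, build GRCr8, on the gene's strand: Tgfb1 at chr1:90324062-90324311 on the plus strand, and Tgfb3 at chr6:111456947-111457196 on the minus strand. For Tgfb3 the start used lies within the span of the gene (111435170 to 111457646), and so does the whole window.
Tgfb1: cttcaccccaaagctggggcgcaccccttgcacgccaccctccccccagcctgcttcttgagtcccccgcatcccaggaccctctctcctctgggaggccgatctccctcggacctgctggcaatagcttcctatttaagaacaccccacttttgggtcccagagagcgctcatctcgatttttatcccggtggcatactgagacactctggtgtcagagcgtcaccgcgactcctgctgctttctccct
Tgfb3: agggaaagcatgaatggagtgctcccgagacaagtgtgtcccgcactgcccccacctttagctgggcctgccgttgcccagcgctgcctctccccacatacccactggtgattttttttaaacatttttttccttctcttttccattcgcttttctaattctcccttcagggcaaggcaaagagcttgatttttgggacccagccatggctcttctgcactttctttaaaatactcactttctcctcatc
The window held 60.0% G and C for Tgfb1 and 48.8% for Tgfb3, against a median of 51.2% over 33469 RefSeq entries. Neither held the GC box GGGCGG on either strand, which 30.5% of all entries held. Nor did either hold TGANTCA, the AP-1 motif (6.34% of all entries), or GTCTAGAC, the SMAD palindrome (0.173%), letters that were absent from the windows of all 10 genes.

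Ltbp1, which binds the latent complex and ties it to the matrix, spans 25781625 to 26177346 of chromosome 6. It gave 558, 530.1 and 616 with rapamycin and 512, 473 and 488 with vehicle in WB311, against 2882, 3799 and 3352 with rapamycin and 2394, 3290 and 2512 with vehicle in WB-F344. The lines did not overlap under either treatment, with a log2 difference of -2.46 with vehicle (SE 0.13, adjusted p = 5.23e-09) and -2.55 with rapamycin (adjusted p = 3.04e-09).

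The window upstream of Ltbp1 is shown because it was the only one of the 10 with the cyclic AMP response element TGACGTCA, in capitals, found in 1.59% of all entries. It lies at chr6:26177302-26177551 (GRCr8) on the minus strand, with the start used again inside the gene's span, and the element begins 108 bases before that start.
Ltbp1: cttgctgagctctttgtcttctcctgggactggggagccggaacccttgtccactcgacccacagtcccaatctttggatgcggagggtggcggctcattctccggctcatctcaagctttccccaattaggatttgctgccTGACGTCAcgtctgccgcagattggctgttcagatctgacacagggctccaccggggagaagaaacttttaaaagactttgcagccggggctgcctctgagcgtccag
A match of letters is a description, and no binding was measured.

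The type I receptor went the other way. Tgfbr1 (chromosome 5, 66449348 to 66506371) gave 796, 726 and 746 with rapamycin and 692, 673 and 745 with vehicle in WB311, against 271, 319 and 254 with rapamycin and 199, 289.5 and 179.5 with vehicle in WB-F344. Every WB311 plate was brighter than every WB-F344 plate. The difference was 1.69 on the log2 scale with vehicle (SE 0.15, adjusted p = 7.89e-07), a 3.22-fold higher intensity, and 1.43 with rapamycin (adjusted p = 2.99e-06). Its window (chr5:66449148-66449397, plus strand, GRCr8, also with a start inside the gene's span) is set beside those of the ligands because it was GC-rich, at 75.6%, with 3 GC boxes in capitals, GGGCGG on the strand shown or its complement CCGCCC.
Tgfbr1: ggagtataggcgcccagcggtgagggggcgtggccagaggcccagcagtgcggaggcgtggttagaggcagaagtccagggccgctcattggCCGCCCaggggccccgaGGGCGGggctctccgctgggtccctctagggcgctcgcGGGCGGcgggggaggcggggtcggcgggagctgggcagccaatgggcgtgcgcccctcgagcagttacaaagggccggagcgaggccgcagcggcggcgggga
The GC box was present in the windows of 6 of the 10 genes, all receptors and SMADs, and in none of the ligands or Ltbp1, against 30.5% of all entries. The windows of Tgfb2, Tgfb3, Tgfbr2 and Smad2 lay wholly inside the span of the gene, so the windows are not alike in position.

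Tgfbr3 encodes betaglycan, a co-receptor that presents ligand, above all Tgfb2, to the type II receptor. It was near the limit of 100, at 102, 101 and 96.6 with rapamycin and 101, 99.4 and 107 with vehicle in WB311, against 89.1, 103.5 and 98.4 with rapamycin and 90.2, 83.8 and 82.5 with vehicle in WB-F344. With vehicle the WB311 plates were all higher, by 0.26 on the log2 scale (SE 0.07, adjusted p = 0.00894). The fold of 1.197 was just under the 1.2 asked for, so it was not called. It was called without WB-F344 vehicle plate 1 (adjusted p = 0.00878), WB311 vehicle plate 1 (adjusted p = 0.0207) or WB311 vehicle plate 2 (adjusted p = 0.016), where the fold passed 1.2.

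The signal carriers differed less between the lines. Smad2 gave 785, 811 and 769.8 with rapamycin and 679, 761 and 809 with vehicle in WB311, against 669, 642 and 579.8 with rapamycin and 762, 657 and 699.8 with vehicle in WB-F344. The line difference was 0.08 with vehicle (95% interval -0.11 to 0.27, adjusted p = 0.419) and 0.33 with rapamycin (SE 0.09, adjusted p = 0.0057), and only the second was called. After cyclic loess normalization it was 0.24 for Smad2, under a 1.2-fold change, and the call was lost. Smad3 gave 539, 597 and 590.3 with rapamycin and 422, 417 and 459 with vehicle in WB311, against 515, 619.6 and 558 with rapamycin and 498, 579 and 440.4 with vehicle in WB-F344. Its line difference was -0.22 with vehicle (95% interval -0.44 to 0.01, adjusted p = 0.0859) and 0.03 with rapamycin (95% interval -0.19 to 0.26, adjusted p = 0.809). Without WB-F344 vehicle plate 3 the difference with vehicle was -0.31 for Smad3 (adjusted p = 0.0216) and was called.

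Smad7, the inhibitor that TGF-beta itself induces, was lower in WB311 on both probe sets tested. The first gave 198, 231.5 and 219 with rapamycin and 149.5, 141 and 153 with vehicle in WB311, against 628, 912 and 639 with rapamycin and 554, 848 and 635 with vehicle in WB-F344. The second was under 100 in WB311, at 55.5, 66.2 and 55.1 with rapamycin and 41.2, 35.25 and 34.9 with vehicle, against 231, 132 and 187 with rapamycin and 253.5, 147 and 227 with vehicle in WB-F344. The lines did not overlap on either. With vehicle the differences were -2.18 (SE 0.16, adjusted p = 1.64e-07) and -2.46 (SE 0.21, adjusted p = 6.92e-07), and with rapamycin -1.73 (adjusted p = 1.17e-06) and -1.61 (adjusted p = 2.75e-05).

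**Figure D2:**
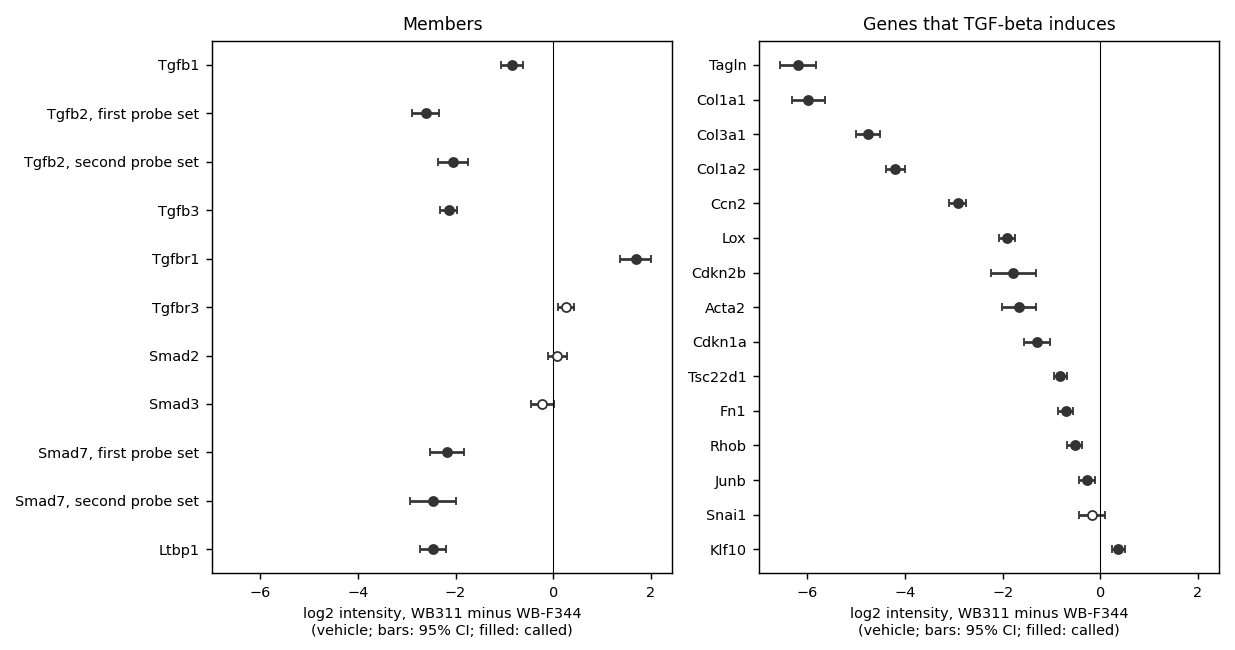
Log2 intensity difference, WB311 minus WB-F344, both with vehicle (x axis), for the 11 member probe sets tested on the left and 15 genes that TGF-beta is known to induce on the right. Points are limma estimates with 95% intervals, filled where called. On the left 7 filled points lie below 0 and Tgfbr1 lies at 1.69, and on the right 13 of 15 points are filled below 0 and Klf10 lies at 0.37.

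Genes around the core pathway were followed in 5 lists. Of 18 genes that TGF-beta is known to induce in many cells, 15 were tested between the vehicle groups, and 13 were called lower in WB311, 1 higher, with a median of -1.67 against 0.02 over all probe sets. Over all probe sets tested 28.1% were called lower and 27.9% higher with vehicle, and 26.0% and 33.3% in the same order with rapamycin, the shares beside which the counts of each list in this comparison stand. The genes of smallest p were the collagens Col1a2 (756 ± 22.1 in WB311 against 13930 ± 1190 in WB-F344, SD, n = 3 each, log2 difference -4.20), Col3a1 (-4.75) and Col1a1 (-5.98), and Tagln, an actin-binding protein of smooth muscle (76.9 ± 22.3 against 5478 ± 504, -6.19). Tagln and Cdkn2b (41.8 ± 6.42 in WB311 and 146 ± 38.8 in WB-F344) were under 100 in WB311 with either treatment. Both were thus tested through the line where they were higher. The exception was Klf10, a TGF-beta inducible repressor, at 719 ± 19.6 in WB311 and 556 ± 14.5 in WB-F344 (0.37, adjusted p = 0.000183). Col1a1, Col3a1, Acta2 and Tagln are also 4 of the 6 mesenchymal markers, whose summed intensity differed between the lines as given above, and their part in the difference of the ligands was not tested. With rapamycin in both lines, 13 were lower and 2 higher, Klf10 (0.97) and Snai1 (0.32), with a median of -1.47. Snai1 lost its call without WB-F344 rapamycin plates 1 or 3 or WB311 rapamycin plates 2 or 3 (adjusted p = 0.0734 to 0.128). Junb was lower with vehicle (-0.27), and this call was lost without WB-F344 vehicle plate 3 or WB311 vehicle plate 2 (adjusted p = 0.0278 to 0.0334), where its fold was under 1.2, as it was with a pseudocount of 16. By the methods' t-test with unequal variances (adjusted p = 0.064) and with no filter on intensity (0.0589) Snai1 was not called either.

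The negative regulators Smurf2 and Skil, which TGF-beta also induces, were lower in WB311. Smurf2, a ubiquitin ligase that works with Smad7, averaged 598 ± 33.1 in WB311 and 3572 ± 244 in WB-F344 with vehicle (log2 difference -2.58, adjusted p = 5.84e-11). Pmepa1, which traps Smad2 and Smad3 at the membrane, averaged 332 ± 25.8 and 1621 ± 266 in the same order (-2.28), and Skil, a nuclear co-repressor of the SMADs, 775 ± 60.1 and 2467 ± 236 (-1.67). Among the 15 tested of 16 other SMADs and SMAD regulators, 5 were lower and 4 higher, with a median of -0.25, both counts near the shares of all probe sets. The others that were lower were Smurf1 (-1.06) and Smad9 (-0.46), and those higher were Trim33 (0.76), Tgif2 (0.68), Zfyve9 (0.61), which brings Smad2 and Smad3 to the receptor, and Smad4 (0.38), their partner in the nucleus. Zfyve9 averaged at least 100 with vehicle only in WB311 (132 ± 11.7, against 86.0 ± 6.22 in WB-F344). With rapamycin in both lines 5 were lower and 5 higher, and those of smallest p were Smurf2 (-2.86), Pmepa1 (-2.62), Skil (-1.81) and Tgif2 (1.16). Smad9, a SMAD of the BMP branch, was higher with rapamycin (0.32, adjusted p = 0.039), a call lost without WB-F344 rapamycin plates 1 or 3, WB311 vehicle plate 1 or WB311 rapamycin plates 2 or 3 (adjusted p = 0.0516 to 0.176), by either form of the methods' t-test (0.0965 and 0.142), after cyclic loess (0.0514) or with no filter on intensity (0.0654). Trim33 lost its call with vehicle by the methods' t-test with unequal variances (adjusted p = 0.0546). Calls were gained with vehicle for the inhibitor Smad6 (-0.49, adjusted p = 0.193) without WB-F344 vehicle plate 2 (0.00111), without both plates numbered 2 (1.07e-06) or with array weights (0.000541), and for Smad5 (-0.26) without WB-F344 vehicle plate 1 (0.0253). The fit with the plate number as a block also called Smad6 (0.00354). That fit takes out the spread between plates of a line, against which a difference between lines is judged.

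Of 12 genes of latency and activation, 5 were tested, and with vehicle 4 were lower and 1 higher in WB311 (median -0.63). Ltbp2 was at 106 ± 11.9 in WB311 and 4481 ± 1150 in WB-F344 (-5.37, adjusted p = 8.9e-11), and Ltbp3 was lower too (-1.19), while Ltbp4 was higher (0.56, adjusted p = 0.00323). Itgav, the integrin chain that helps free latent ligand, differed by -0.61 (adjusted p = 0.00348). Furin, a protease that cuts the ligand's precursor, was the other lower one (-0.63, adjusted p = 0.0378). That call was lost without WB-F344 vehicle plate 2, WB311 vehicle plates 1 or 2, or WB311 rapamycin plates 1 or 3 (adjusted p = 0.0502 to 0.147) or with no filter on intensity (0.0625). By both forms of the methods' t-test Itgav (adjusted p = 0.0611 and 0.123) and Furin (0.0992 and 0.131) were not called, nor Ltbp4 by the form with unequal variances (0.0614). With rapamycin Ltbp2 (-5.77), Ltbp3 (-1.33) and Itgav (-0.53) were lower and Ltbp4 (0.70) higher, with a median of -0.53. Furin (-0.47, adjusted p = 0.104) was called there after cyclic loess (0.0441) or without WB-F344 vehicle plate 2 or rapamycin plate 1 (0.0451 to 0.0453). It was also called with the block (0.000964), which leaves the spread between plate numbers out of a comparison between lines.

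Related receptors were higher in WB311 where called with vehicle: 3 of 6 tested were higher and 0 lower (median 0.28), namely Bambi, a pseudoreceptor without a kinase domain (234 ± 32.0 in WB311 and 59.2 ± 12.9 in WB-F344, log2 difference 2.00, adjusted p = 9.27e-07), and the activin receptors Acvr2b (0.89) and Acvr2a (0.47). Bambi and Acvr2b (111 ± 4.39 in WB311 and 60.4 ± 8.27 in WB-F344) averaged at least 100 with vehicle only in WB311. They were thus tested through the line where they were higher. With rapamycin 4 were higher, Acvr2b (0.66), Bambi (0.89), Acvr2a (0.34) and Acvr1 (0.31), and 1 lower, the BMP receptor Bmpr2 (-0.40, adjusted p = 0.0389), with a median of 0.32. Bmpr2 lost its call without WB-F344 rapamycin plates 1 or 3, WB311 vehicle plate 1 or WB311 rapamycin plate 2 (adjusted p = 0.0514 to 0.176), Acvr1 without WB-F344 rapamycin plate 1 (0.0684) and Acvr2a without WB311 rapamycin plate 2 (0.022, fold under 1.2). By the methods' t-test with unequal variances Bmpr2 (adjusted p = 0.174), Acvr1 (0.0783) and Acvr2a (0.0555) were not called, and Bmpr2 was also lost with equal variances (0.167), with only the groups compared (0.0754) or with no filter on intensity (0.0652), and Acvr1 after cyclic loess (0.021, fold under 1.2). Of 5 genes that TGF-beta is known to repress in epithelial cells, Myc (1140 ± 68.0 in WB311 and 312 ± 19.2 in WB-F344, 1.87) and Id2 (3894 ± 46.2 and 864 ± 106 in the same order, 2.18) were higher with vehicle and Id1 was lower (-0.51), with a median of 0.19. With rapamycin Id2 (3.29) and Myc (0.93) were higher and 0 were lower.

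Rapamycin changed the ligands of WB-F344 in opposite directions. Of the 10 member probe sets tested, 2 were called, against 23.0% of all probe sets tested. The 1 called higher (background 7.74%) was Tgfb1, at 739 ± 36.5 with rapamycin and 445 ± 59 with vehicle (SD, n = 3 each, log2 difference 0.74, SE 0.10, 1.67-fold, adjusted p = 0.000316). The 1 called lower (background 15.3%) was Tgfb3, at 487 ± 33.8 with rapamycin and 931 ± 64.4 with vehicle (-0.94, SE 0.08, adjusted p = 1.5e-05). For both genes the plates of each treatment did not overlap, and both calls were kept under each of the alternatives run. The share of members called, 2 of 10, was near the background. The summed leukocyte markers, of which Cd14 alone reached 100, were also higher with rapamycin in WB-F344 (1079 to 1332, against 595 to 718 with vehicle), and their part in the difference of Tgfb1 and Tgfb3 was not tested. The median log2 difference over the 10 was 0.23, against -0.05 over all probe sets tested.

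The same-numbered plates of WB-F344 deviated together, as given under the processing, though plates 1 and 3 also did so across numbers. A fit with the plate number as a block is therefore given for the uncalled members, although the labels state no pairing. With this block 6 of the 10 were called, Tgfb1 and Tgfb3 among them, against 30.4% of all probe sets tested in that fit. The ratio of rapamycin to vehicle on plates 1, 2 and 3 was 1.26, 1.26 and 1.30 for the first probe set of Tgfb2 (log2 difference 0.35, adjusted p = 0.0638 without the block and 0.00452 with it). It was 1.30, 1.32 and 1.26 for the second (0.37, adjusted p = 0.0795 and 0.00199). For Tgfbr1 it was 1.36, 1.10 and 1.42 (0.36, adjusted p = 0.095 and 0.00821), and for Ltbp1 1.2, 1.15 and 1.33 (0.30, adjusted p = 0.107 and 0.0111). All of these ratios were above 1, while across plate numbers the treatments overlapped for each of these probe sets.

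The calls of these uncalled members also turned on single plates of WB-F344. Without vehicle plate 2, the first probe set of Tgfb2 (adjusted p = 0.0114), Tgfbr1 (0.00171) and Ltbp1 (0.0108) were called. The second probe set of Tgfb2 was called without vehicle plate 1 (adjusted p = 0.0439) or rapamycin plate 2 (0.0148). Without both plates numbered 2, 6 were called, with log2 differences of 0.36 and 0.35 for Tgfb2, 0.47 for Tgfbr1 and 0.34 for Ltbp1, against 29.4% of all probe sets tested. Smad2 (-0.16, 95% interval -0.35 to 0.03), Smad3 (0.16, -0.06 to 0.39) and Smad7 (0.10, -0.25 to 0.45, and -0.19, -0.65 to 0.28) passed in none of these.

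**Figure D3:**
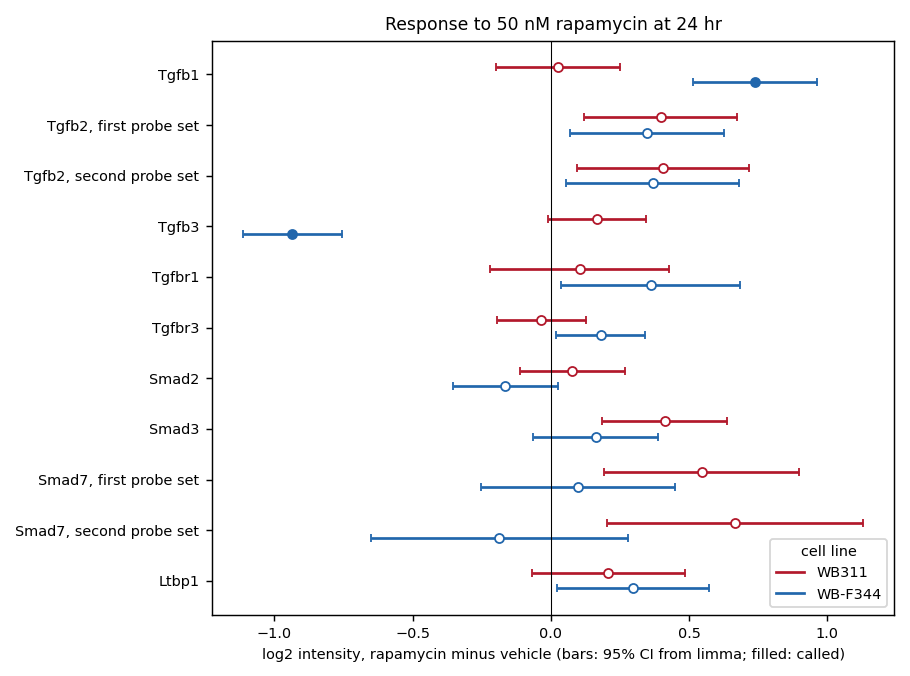
Log2 intensity difference, rapamycin minus vehicle (x axis), for the 11 member probe sets, with WB311 in red above WB-F344 in blue in each row. Points are limma estimates with 95% intervals, filled where called. Only Tgfb1 (0.74) and Tgfb3 (-0.94) in WB-F344 are filled.

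In WB311, 0 of 10 member probe sets were called with rapamycin by limma, against 3.35% of all probe sets tested (1.71% higher and 1.64% lower). At an unadjusted p under 0.05, 2232 of 13135 probe sets passed in this comparison. The members nearest to the threshold were all higher with rapamycin. Smad3 averaged 576 ± 31.4 with rapamycin and 433 ± 23.0 with vehicle (log2 difference 0.41, SE 0.10, adjusted p = 0.0519), and Smad7 (first probe set) 216 ± 16.9 and 148 ± 5.90 in the same order (0.55, SE 0.16, adjusted p = 0.0958). Tgfb2 averaged 308 ± 28.2 and 234 ± 17.0 on its first probe set (0.40, adjusted p = 0.122) and 291 ± 15.7 and 220 ± 8.33 on its second (0.41, adjusted p = 0.163). On these probe sets and on Ltbp1 (0.21, adjusted p = 0.464), 5 of 10, every rapamycin plate was above every vehicle plate, while the groups did not overlap in either direction for 38.7% of all probe sets tested.

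Smad3, Smad7 and both probe sets of Tgfb2 were called under several alternatives. In the fit of only the WB311 groups their adjusted p was 0.00995, 0.00489, 0.0239 and 0.00895, and 8.68% of all probe sets tested were called. Both forms of the methods' t-test, the fold change filter before the correction and array weights also called these 4, as did the fit without the plates numbered 2 of WB-F344 (adjusted p = 0.00631, 0.00182, 0.0105 and 0.00453), in which 9.04% of all probe sets were called. The median SD of log2 intensity was 0.08 and 0.09 in the WB311 groups, against 0.12 and 0.13 in the WB-F344 groups, and all 4 share 1 estimate of the spread in the test given first. Smad3 was called without WB-F344 vehicle plates 2 or 3 or rapamycin plate 2 (adjusted p = 0.018 to 0.0418), and Smad7 without WB-F344 vehicle plate 2 or rapamycin plate 2 (0.0313 and 0.0407). The other members gave 0.03 for Tgfb1 (95% interval -0.20 to 0.25), 0.17 for Tgfb3 (-0.01 to 0.35), 0.10 for Tgfbr1 (-0.22 to 0.43), -0.03 for Tgfbr3 (-0.20 to 0.13) and 0.08 for Smad2 (-0.11 to 0.27). The median over the 10 was 0.19, against 0.01 over all probe sets tested.

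The response to rapamycin differed between the lines for Tgfb1 and Tgfb3. In the test of the difference, WB311 minus WB-F344, 2 of 11 member probe sets were called, against 10.0% of all probe sets tested. It was -0.71 for Tgfb1 (SE 0.15, adjusted p = 0.00864), whose response was 0.03 in WB311 and 0.74 in WB-F344, and 1.10 for Tgfb3 (SE 0.12, adjusted p = 0.000184), with 0.17 in WB311 and -0.94 in WB-F344. The difference was 0.45 for the first probe set of Smad7 (adjusted p = 0.266) and 0.85 for the second (adjusted p = 0.101). With the block, set in both lines, both were called (adjusted p = 0.0199 and 0.00194), and without the plates numbered 2 of WB-F344 they were called together with Tgfbr1 (-0.37, adjusted p = 0.0435). Those fits called 4 and 5 member probe sets, against 19.4% of all probe sets tested with the block and 17.8% without the plates. Leaving out WB-F344 vehicle plate 2 alone was enough for the second probe set of Smad7 (adjusted p = 0.0141) and for Tgfbr1 (adjusted p = 0.0462). That probe set of Smad7 averaged 58.9 with rapamycin and 37.1 with vehicle in WB311, and entered this test only through WB-F344. The third probe set of Smad7, under 100 in every group and not tested, gave a difference of -0.04. For Tgfb2 the response was close in both lines, with a difference of 0.05 (95% interval -0.34 to 0.44) and 0.04 (-0.40 to 0.48).

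Probe sets of a single gene disagreed on the WB-F344 plates numbered 2. The first probe set of Tgfb2 lay 0.35 with rapamycin and 0.37 with vehicle above the mean log2 of the other plates of its group, and the second lay below it, at -0.44 and -0.48. The first of Smad7 lay at 0.53 and 0.52, and the second at -0.65 and -0.71. The ratios of rapamycin to vehicle within a plate number were nearly the same on both probe sets of Tgfb2, as given above. The 3′ to 5′ values of the controls moved with these plates, and their part in the disagreement was not tested.

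**Figure D4:**
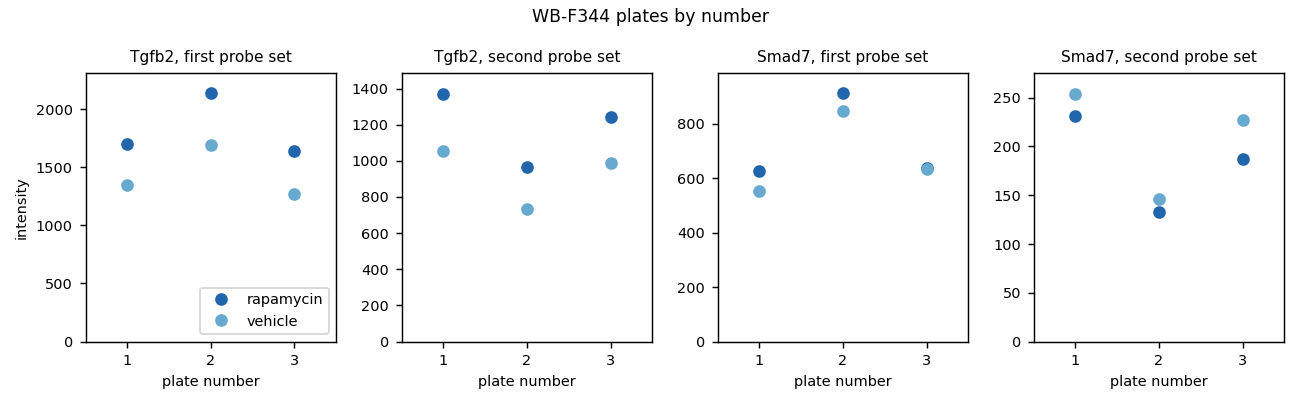
Intensity (y axis, linear from 0) of the probe sets of Tgfb2 and Smad7 on the WB-F344 plates by plate number (x axis), rapamycin in dark blue and vehicle in light blue. On plate 2 the left probe set of each gene is highest and the right one lowest, under both treatments.

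Downstream of the core pathway, rapamycin raised some induced genes and lowered others in WB-F344. Of 15 tested, 2 rose (7.74% of all probe sets did) and 5 fell (15.3% did), with a median of -0.09 against -0.05 over all probe sets. Junb, an AP-1 subunit, was at 465 ± 29.5 with rapamycin and 234 ± 7.37 with vehicle (0.99, adjusted p = 7.16e-06), and Cdkn2b, the cell cycle inhibitor p15, at 347 ± 74.7 and 146 ± 38.8 in the same order (1.26, adjusted p = 0.000974). Col3a1 was at 6924 ± 733 with rapamycin and 12890 ± 1150 with vehicle (-0.90, adjusted p = 0.000161), and Lox, which crosslinks collagen, at 6571 ± 323 and 8471 ± 229 (-0.37, adjusted p = 0.00271). The other 3 that fell were Klf10 (-0.30, adjusted p = 0.00361), Tsc22d1 (-0.28) and Col1a1 (-0.50, adjusted p = 0.0344). Tsc22d1 lost its call without vehicle plate 3 (adjusted p = 0.0266, fold under 1.2), and Col1a1 without vehicle plates 2 or 3 or rapamycin plates 1 or 3 (0.0662 to 0.126). After cyclic loess Klf10 (adjusted p = 0.0304) and Tsc22d1 (0.0217) had a fold under 1.2 and Col1a1 an adjusted p of 0.0616. With only the groups compared Tsc22d1 (adjusted p = 0.0549) and Col1a1 (0.129) were not called, nor was Col1a1 with no filter on intensity (0.0668) or by either form of the methods' t-test (0.137 and 0.145). Other calls were gained. Rhob (0.24, fold under 1.2) was called without vehicle plate 2 or rapamycin plate 1 (adjusted p = 0.0216 to 0.0298) or after cyclic loess (0.00214). Snai1 (-0.31, adjusted p = 0.0781) was called with the block (0.0312), without vehicle plate 1 (0.033) or with the fold change filter first (0.0304). Tagln (0.41, adjusted p = 0.102) was called with the block (0.0103), without WB311 vehicle plate 2 (0.0264), with only the groups compared (0.0301), by the methods' t-test with equal variances (0.0236) or with the fold change filter first (0.0414). Summed mesenchymal markers were 22717 to 27375 with rapamycin and 29630 to 36260 with vehicle.

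In WB311 5 of 13 tested induced genes rose with rapamycin and 0 fell, with a median of 0.18 against 0.01, where 1.71% of all probe sets were called higher and 1.64% lower. Ccn2, a matrix protein long used as a readout of TGF-beta, averaged 2961 ± 144 with rapamycin and 1697 ± 77.9 with vehicle (0.80, adjusted p = 0.000557), and Junb 265 ± 23.3 and 194 ± 1.68 in the same order (0.44, adjusted p = 0.00921). Fn1, fibronectin (0.38, adjusted p = 0.0112), Klf10 (0.30, adjusted p = 0.0202) and Rhob, a small GTPase (0.32, adjusted p = 0.0257), were the others. Fn1 lost its call without WB311 vehicle plate 1 or rapamycin plates 2 or 3 (adjusted p = 0.0544 to 0.0618), Klf10 without any WB311 plate but vehicle plate 3 (0.0507 to 0.0997) and Rhob without any WB311 plate (0.0552 to 0.118) or with no filter on intensity (0.0545). Col1a2 (0.32, adjusted p = 0.0711) was called without WB-F344 vehicle plate 2 (0.0437), without both plates numbered 2 (0.0208) and under 6 other settings besides the block (0.0088 to 0.0408). Summed mesenchymal markers were 1207 to 1280 with rapamycin and 1156 to 1252 with vehicle.

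The latent binding proteins were higher with rapamycin where called. In WB-F344 3 of 5 tested genes of latency and activation rose, against 7.74% of all probe sets, Ltbp3 (1047 ± 63.5 with rapamycin and 730 ± 73.1 with vehicle, 0.52, adjusted p = 0.00095), Ltbp2 (0.58, adjusted p = 0.0318) and Ltbp4 (0.43, adjusted p = 0.0355), and 0 fell (median 0.43). Ltbp2 lost its call without WB-F344 vehicle plates 1 or 3 or rapamycin plates 2 or 3 (adjusted p = 0.0714 to 0.115), and Ltbp4 without WB-F344 vehicle plates 1 or 3, rapamycin plate 2, WB311 vehicle plate 1 or WB311 rapamycin plate 3 (0.0504 to 0.125). Neither was called by either form of the methods' t-test (adjusted p = 0.1 and 0.135 for Ltbp2 and 0.137 and 0.143 for Ltbp4), with only the groups compared (0.084 and 0.137) or with no filter on intensity (0.0621 and 0.0688), nor Ltbp4 once arrays were centred on their medians (0.0665). In WB311 Ltbp3 (415 ± 23.1 with rapamycin and 320 ± 15.7 with vehicle, 0.38, adjusted p = 0.0365) and Ltbp4 (0.57, adjusted p = 0.0417) rose, against 1.71% of all probe sets, and 0 fell (median 0.19). Both lost their call without any 1 of the 6 WB311 plates or WB-F344 vehicle plate 3, Ltbp3 also without WB-F344 rapamycin plate 1 and Ltbp4 also without WB-F344 rapamycin plate 3 (adjusted p = 0.0531 to 0.158 for Ltbp3 and 0.0522 to 0.167 for Ltbp4), with arrays centred on their medians (0.0621 and 0.0645) or with no filter on intensity (0.0771 and 0.0878). The difference of the responses was called for 0 of these 5 genes by limma, against 10.0% of all probe sets tested.

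Among the other SMADs and their regulators, 3 of 14 tested rose in WB-F344 with rapamycin (7.74% of all probe sets did) and 2 fell (15.3% did), with a median of 0.04. The share that fell was near that of all probe sets. Those that rose were Tgif1, a SMAD co-repressor (2259 ± 98.8 with rapamycin and 1707 ± 49.6 with vehicle, 0.40, adjusted p = 0.00105), Skil (0.46, adjusted p = 0.00357) and Smurf2 (0.32, adjusted p = 0.014). Smad9, a SMAD of the BMP branch (147 ± 23.9 with rapamycin and 230 ± 21.5 with vehicle, -0.66, adjusted p = 0.00228), and Tgif2 (-0.43, adjusted p = 0.045) fell. Smurf2 lost its call without WB-F344 vehicle plate 1 (adjusted p = 0.0527), and Tgif2 without any 1 of 10 arrays (0.0605 to 0.178), the exceptions being WB-F344 vehicle plate 1 and rapamycin plate 2. By the methods' t-test with unequal variances Smad9 (adjusted p = 0.0585), Smurf2 (0.0511) and Tgif2 (0.19) were not called. Tgif2 was also lost with equal variances (adjusted p = 0.167), with only the groups compared (0.173), with no filter on intensity (0.0856) and with the variance moderated over expressed probe sets (0.053). Pmepa1 (0.27, adjusted p = 0.0917) was called with the block (0.0193), without vehicle plate 2 (0.00763), without both plates numbered 2 (0.0147), with the fold change filter first (0.0368), after cyclic loess (0.0134) or with array weights (0.0154). Smad6 (-0.30, adjusted p = 0.524) was called without vehicle plate 2 (0.0127) or both plates numbered 2 (0.00213). In WB311 0 of 15 were called in either direction by limma (median 0.11), against 3.35% of all probe sets tested. Skil (0.31, adjusted p = 0.097) was called there without both WB-F344 plates numbered 2 (0.0317) and under 5 other settings (0.0128 to 0.0478).

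Bambi, which dampens signalling by pairing with the type I receptor, was the only called gene of 5 related receptors tested in WB-F344 with rapamycin, at 105 ± 21.8 with rapamycin and 59.2 ± 12.9 with vehicle (0.82, adjusted p = 0.00505, list median 0.07). Over all probe sets tested 7.74% were called higher and 15.3% lower. Bambi averaged at least 100 only with rapamycin, the treatment where it was higher. By both forms of the methods' t-test the call for Bambi was lost (adjusted p = 0.0662 and 0.0741), and Bmpr2 (0.21) was called without rapamycin plate 2 (0.0399). In WB311 0 of 6 were called by limma (median 0.02), against 3.35% of all probe sets tested. Among the 5 genes that TGF-beta represses, Myc was higher with rapamycin in both lines, at 1614 ± 49.2 with rapamycin and 1140 ± 68.0 with vehicle in WB311 (0.50, adjusted p = 0.00314), and at 848 ± 20.2 and 312 ± 19.2 in the same order in WB-F344 (1.44, adjusted p = 3.13e-07). In WB311 Id1 also rose (0.33, adjusted p = 0.0291), a call that was lost without any WB311 plate but rapamycin plate 1 (0.06 to 0.133) or with no filter on intensity (0.0619), and the median was 0.14. In WB-F344 Id2 (-1.12, adjusted p = 1.5e-05) and Cdc25a (-0.39, adjusted p = 0.0299) fell, with a median of -0.26. Cdc25a lost its call without WB-F344 vehicle plate 2 or rapamycin plates 1 or 3 (0.0667 to 0.0984), with only the groups compared (0.12), with no filter on intensity (0.0586) or by the methods' t-test (0.116 and 0.152). Id1 (-0.26, fold under 1.2) was called without vehicle plate 2 or rapamycin plates 1 or 3 (0.00958 to 0.0416), without both plates numbered 2 (0.0176), with array weights (0.00897) or with arrays centred on their medians (0.00736).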

How the data were processed

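RNA from 3 plates per group was measured on 12 Affymetrix Rat Genome 230 2.0 arrays. The authors normalized the intensities with Robust Multiarray Average and deposited them on a linear scale, with no version given in the sources used here. Of the columns, 0 were not matched to a sample. The 57 array controls were left out, and the annotation gave 1 symbol for 20826 of 31042 probe sets, several for 436 and none for 9780, with 20758 matched to a RefSeq gene.

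Log2 of the intensity was fitted with limma 3.58.1 in R 4.3.3 as 4 group means over all probe sets, two-sided, with tables and promoter windows handled in Python 3.11.15. The thresholds (average of 100, 1.2-fold, adjusted p of 0.05) are those of the study's methods. Those methods leave out genes under 1.2-fold before a two-sample t-test and its correction. The main test here corrected over all probe sets tested and asked for the fold change afterwards. The methods' t-test was run as an alternative on log2 intensity with the fold change filter first. It thus differs from the main test in both the test and the order of the filter. Fits were tested on simulated data with independent errors and 1 SD per probe set in all groups. Plates that deviate together and groups of unequal spread were not covered. Same-numbered WB-F344 plates deviated together (correlation of deviations 0.561 to 0.871), but plates 1 and 3 also correlated across numbers (0.581 and 0.605). Plate 2 stood apart from both (-0.799 to -0.672 across numbers). In WB311 same-numbered plates did not deviate together (-0.139 to -0.000258). The labels and methods speak of triplicate plates and of no separate cultures, so p-values measure the spread between plates, which may be technical. With 3 arrays per group, their number limits the precision.

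All member probe sets are named, and of each list up to 4 genes per comparison with the smallest p among those called, with others named where a list had few calls or after their values were seen. A list gene was read from its brightest tested probe set. The members and lists were chosen with earlier results of these data known.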

Additional observations from a re-analysis of the deposited data

Results flagged for a closer look

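The response to rapamycin differed between the lines, by limma's test of the difference itself (WB311 minus WB-F344, log2), for 2 members and 13 genes of the lists. Over all probe sets tested 10.0% were called. Called were 2 of 11 member probe sets, 0 of 5 genes of latency and activation, and 1 of 6 related receptors, with a negative difference. Of 15 other SMADs and SMAD regulators 1 was positive and 1 negative, of 15 induced genes 5 and 2, and of 5 repressed genes 2 and 1. For the members it was -0.71 for Tgfb1 and 1.10 for Tgfb3, the ligands whose responses in WB-F344 ran in opposite directions.

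Among regulators it was -1.11 for Bambi, whose intensity was 191 ± 8.94 with rapamycin and 234 ± 32.0 with vehicle in WB311 and 105 ± 21.8 with rapamycin and 59.2 ± 12.9 with vehicle in WB-F344. It was 0.78 for Smad9 and -0.35 for Tgif1, and the call for Tgif1 was lost without any 1 of 10 arrays (adjusted p = 0.0519 to 0.0946), the exceptions being WB311 vehicle plate 1 and WB-F344 rapamycin plate 2.

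Among genes that TGF-beta induces it was 0.78 for Ccn2, 0.60 for Klf10, 1.08 for Col3a1, 0.44 for Lox and 0.45 for Col1a2, with -0.55 for Junb and -1.31 for Cdkn2b. The call for Col1a2 was lost without any 1 of 9 arrays (adjusted p = 0.0569 to 0.0954), the exceptions being WB-F344 vehicle plate 1, WB-F344 rapamycin plate 2 and WB311 rapamycin plate 1. Cdkn2b was under 100 in WB311, at 40.2 ± 4.24 with rapamycin and 41.8 ± 6.42 with vehicle.

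Among genes that TGF-beta represses it was -0.94 for Myc, 0.59 for Id1 and 1.11 for Id2. Id2 was at 3878 ± 251 with rapamycin and 3894 ± 46.2 with vehicle in WB311, and at 396 ± 35.6 with rapamycin and 864 ± 106 with vehicle in WB-F344.

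The test of the difference gained calls for other genes of the lists. Without both WB-F344 plates numbered 2 it called Smad6 (adjusted p = 0.00211), Tgif2 (0.00464), Pmepa1 (0.0342), Col1a1 (0.0131) and Tsc22d1 (0.0401). With the block it called Col1a1 (0.00276), Tgif2 (0.0239), Snai1 (0.0362) and Cdc25a (0.0468).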

How the results depend on the processing

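The line differences held best: with vehicle 8 member probe sets were called and 8 to 9 when 1 array was left out, and with rapamycin 9 and 9. The count called with rapamycin in WB-F344, 2 at first and 2 to 5 without 1 array, was 6 with array weights, with the replicate block, where the fold change was filtered first, or when both WB-F344 plates numbered 2 were left out, and 5 after cyclic loess. In WB311 it was 0, and 0 to 2 without 1 array, but 4 with only the 2 groups compared, with either form of the methods' t-test, with the fold change filter first, with array weights, with the replicate block or without those plates, and 1 after cyclic loess or with a pseudocount of 16. For the difference of the responses it was 2, and 2 to 4 without 1 array, 4 with the replicate block and 5 without those plates. In WB311 the plate numbers share only a number (above), and the block moved the count over all probe sets there to 1019, against 440.

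Over all probe sets the count in WB-F344 was 3055 at first, 1853 with only the 2 groups compared, 2035 (equal variances) and 1448 (unequal variances) by the methods' t-test, 3584 with the fold change filter first, 3780 with array weights, 4033 with the replicate block and 3885 without those plates. In WB311 it was 440, 1140 with only the 2 groups compared, 1234 and 1026 by the t-tests, 1112 with the fold change filter first, 1193 with array weights, 1188 without those plates and 289 with no filter on intensity. For the difference of the responses it was 1424, 2605 with the fold change filter first, 2597 with array weights, 2761 with the replicate block and 2527 without those plates. Cyclic loess moved the split of calls in WB-F344 to 1433 higher and 1531 lower, against 1027 and 2028, and that of the difference of the responses to 856 and 685, against 976 and 448. Of the single member results under the alternatives, 1141 kept their side of the threshold, 1 lost a call, 73 gained one and 0 reversed. Moderating the variance over expressed probe sets only, chosen after seeing the data, changed no member count. The t-tests and the fit of 2 groups were not run for the difference of the responses. Signals near 100, as of Tgfbr3, limit what the arrays can show.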

Other observations

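The member probe sets under an intensity of 100 in every group entered no comparison. The second probe set of Tgfbr1 averaged 43.9 ± 6.95 with rapamycin and 49.1 ± 7.17 with vehicle in WB311, against 25.2 ± 5.26 with rapamycin and 25.7 ± 4.87 with vehicle in WB-F344 (SD, n = 3 each). The second of Tgfbr3 lay between 41.3 and 73.1 on the 12 arrays, the second of Smad3 between 28.4 and 66.5, and the third of Smad7 between 44.6 and 86.8.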
